A study of Mus musculus with 18 samples.

Results

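The genes described here act in mitosis, the stage of the cell cycle in which copied chromosomes are pulled apart, and in the spindle checkpoint that holds this step back until every chromosome is attached. They came from a list of 42 gene names, and each measured gene was represented by its probe set with the highest mean over the 18 arrays. Of the 42 genes, 39 had a probe set of their own among the 12394 genes on the array, and all 39 were among the 7382 genes tested because their mean log2 value was at least 4. Ccnb1 (cyclin B1), Cdca8 (borealin, a subunit of the chromosomal passenger complex) and Espl1 (separase) have no expression value here and enter only the promoter search.

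The messenger RNA of 18 mouse embryo fibroblast (MEF) lines was measured, each on 1 Affymetrix array. Embryo fibroblasts are connective tissue cells taken into culture from mouse embryos. The lines comprised 9 controls with a normal set of chromosomes, 4 lines with an extra chromosome 13, 3 with an extra chromosome 16, 1 with an extra chromosome 1 and 1 with an extra chromosome 19, so that each trisomic line carried 3 copies of that chromosome. All were grown in the same medium for 2 passages, and RNA was extracted with Trizol. The sources used here do not give strain, embryo age, the way the extra chromosome was brought in, or whether each line came from its own embryo, so p-values measure only the spread between these lines. Lines are named below by group and replicate number, and the first number in each title, whose meaning is likewise not given, was shared by each trisomic line with 1 or 2 control lines.

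In dividing cells the cyclin-dependent kinase Cdk1 with cyclins A and B starts mitosis, the Aurora and Polo-like kinases build the spindle, and the kinetochore joins chromosomes to it. The checkpoint proteins Mad2, BubR1 and Bub3 bind Cdc20 and keep the anaphase-promoting complex (APC/C) inactive until all kinetochores are attached. The complex then marks securin and cyclin B for destruction, separase opens the cohesin rings, and the cell divides. Most of these genes are transcribed late in the cell cycle and are low in cells that are not dividing. In bulk RNA, fewer dividing cells and less of each messenger per dividing cell cannot be told apart.

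Many of the listed genes share a promoter feature that played no part in their choice. Late cell cycle genes often carry a cell cycle genes homology region (CHR), with the letters TTTGAA or TTCGAA, a little downstream of CCAAT boxes. Both were searched on both strands in the stretch from 250 bases before to 50 bases after the start of each gene in a promoter table from RefSeq (GRCm38.p6). The table used holds 36 of the 42 listed genes, and a box and a CHR that shared an end base were both counted. A CHR was found in 27 of these 36 promoters, or 75%, compared with 21.7% of all 27025 genes in that table, and a CCAAT box in 28, or 77.8%, compared with 41.1%. Between 40 bases before and 41 bases after the start, 24 of the 36 (66.7%) had a CHR, compared with 5.25% of all genes. These matches describe letters and not bound sites. The 100 bases before the start are shown for 4 members with a CHR there (Cdk1, Cdc20, Ube2c and Top2a), and for Aurka and Racgap1, which were among the lowest genes in trisomy 13. Capitals mark CCAAT (or ATTGG, the same box on the other strand) and TTTGAA (or TTCAAA on the other strand). In Aurka and Racgap1 the CHR began just past the stretch shown, 33 and 6 bases after the start.
Cdk1, chr10:69352913-69353012, minus strand: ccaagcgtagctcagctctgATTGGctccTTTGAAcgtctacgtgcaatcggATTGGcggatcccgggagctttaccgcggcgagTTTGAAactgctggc
Cdc20, chr4:118437344-118437443, minus strand: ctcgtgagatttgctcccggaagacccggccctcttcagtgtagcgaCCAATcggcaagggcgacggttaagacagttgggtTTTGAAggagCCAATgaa
Ube2c, chr2:164769829-164769928, plus strand: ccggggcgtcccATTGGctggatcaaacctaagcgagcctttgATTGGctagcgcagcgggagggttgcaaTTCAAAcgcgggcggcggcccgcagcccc
Top2a, chr11:99024190-99024289, minus strand: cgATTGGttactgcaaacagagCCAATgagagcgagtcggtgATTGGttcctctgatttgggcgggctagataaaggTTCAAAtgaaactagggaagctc
Aurka, chr2:172370571-172370670, minus strand: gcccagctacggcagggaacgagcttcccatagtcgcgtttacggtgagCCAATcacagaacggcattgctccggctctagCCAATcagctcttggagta
Racgap1, chr15:99651657-99651756, minus strand: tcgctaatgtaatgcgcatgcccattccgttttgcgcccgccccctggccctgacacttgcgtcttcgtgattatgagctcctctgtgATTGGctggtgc

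Arrays differed in RNA quality. In trisomy 16 line 1 and trisomy 13 lines 3 and 4 the 3′ control probe set of Gapdh lay 5.57 to 6.94 above the 5′ one on the log2 scale, compared with -0.20 to 1.41 in the other 15 lines, and the median of the array was 5.11 to 5.29 instead of 5.62 to 5.91. These 3 lines are called 3′-biased below, and the values without them are given beside the results that they moved most. Of the fibroblast matrix genes 10 of 10 passed the filter on low values, with a mean over the list of 13.70 to 14.91 in every line. Smooth muscle and myofibroblast markers passed in 6 of 6 genes, with a list mean of 10.48 to 12.36 over the lines (highest Acta2, at 15.62). Epithelial markers passed in 2 of 7 genes (highest Krt19, at 6.10). Erythroid and endothelial markers had 0 genes above the filter. Of 17 macrophage markers 4 passed, with the highest mean for Csf1r at 4.95, and their list mean reached 4.38 in a control line and 4.91 in a trisomy 13 line. The neural list mean was 5.64 to 6.45 in trisomy 13 lines and 4.36 to 5.44 in controls, with 3 of 6 genes above the filter (highest Stmn2). The part of these markers in the results below was not tested.

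Among control lines the mitosis genes varied together. Over the 9 controls the median correlation between pairs of members was 0.81 (741 pairs), while the median over all pairs of tested genes was 0.04, and 91.0% of the pairs of members were above 0.5. For 32 of the 39 members the correlation with the mean of the others was above 0.8, with Kif2c (a kinesin that takes microtubules apart) at 0.98 and Aurkb (the Aurora kinase of the chromosomal passenger complex) at 0.97. The weakest were Cenpe, a kinetochore motor, at 0.58, and Foxm1, the transcription factor of many of these genes, at 0.17. These correlations describe 9 arrays that share culture and array differences. The members were highest in controls 1 and 2, in which their mean lay 0.86 and 0.79 above the control mean. Over the other 7 controls, a set chosen after seeing the data, the median pairwise correlation of the members was 0.44, against 0.062 over all pairs of tested genes. The other 7 controls ran from -0.51 (lines 3 and 5) to -0.01 (line 7). Controls 1 and 3 have the same first title number, 89, and still stood at opposite ends: 38 of 39 members were higher in line 1, by a median of 1.39 on the log2 scale, against a median of 0.20 over all tested genes. Controls 5 and 6, which share the number 780, differed by a median of -0.19.

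**Figure D1:**
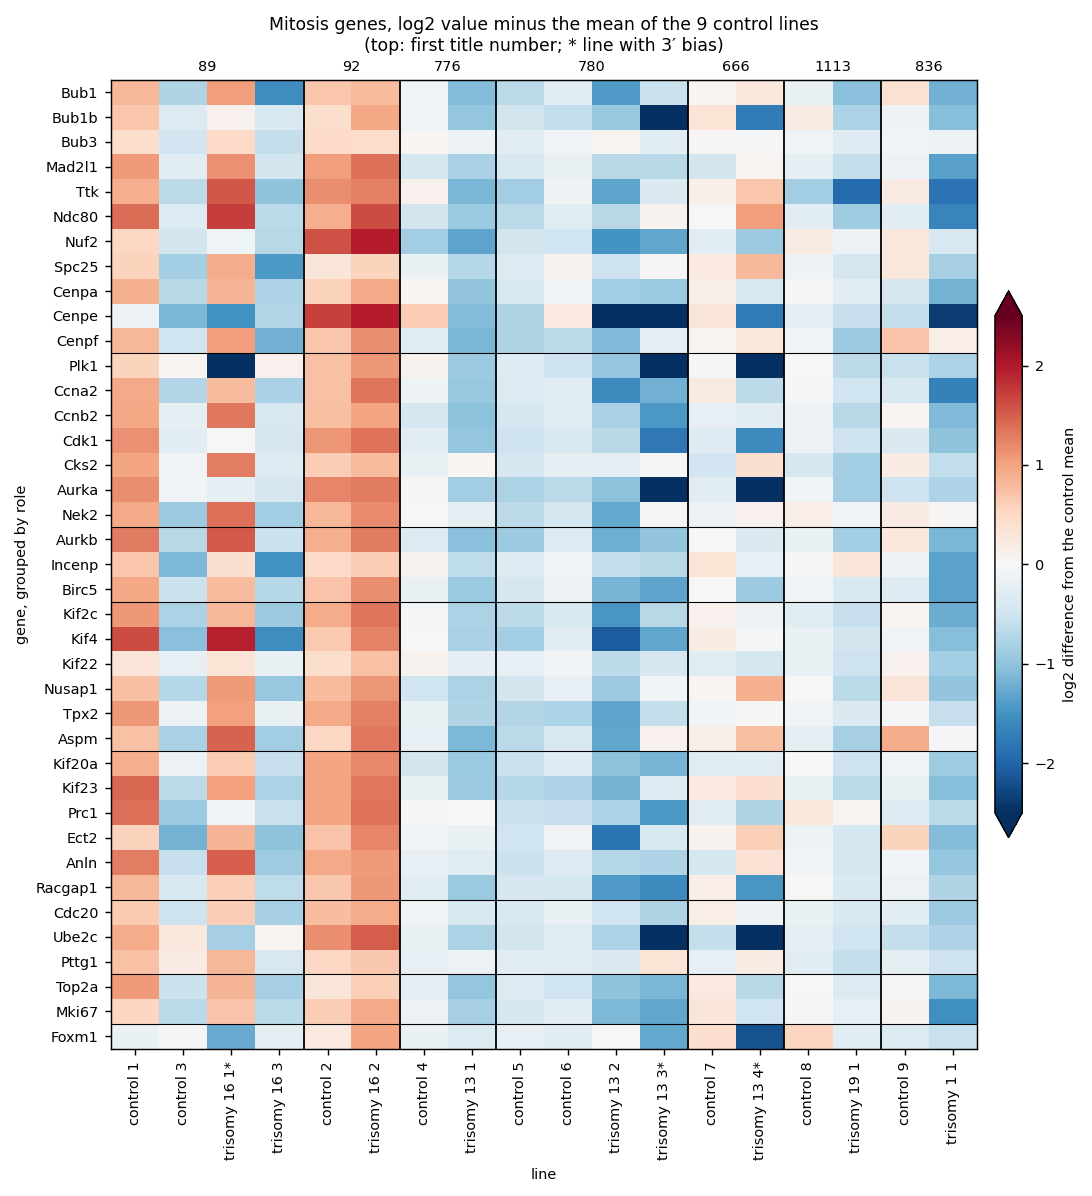
Log2 value of 39 mitosis genes (rows, grouped by role) in 18 lines (columns, ordered by first title number) minus the mean of the 9 controls. Red columns are controls 1 and 2 and trisomy 16 lines 1 and 2, and the lowest column means are those of trisomy 13 line 3 (-1.18), trisomy 13 line 2 (-1.01) and the trisomy 1 line (-0.95).

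The spread between lines was wider for the members than for other genes in controls and in trisomy 16. The median standard deviation (SD) of the members was 0.56 over 9 controls, where all tested genes had 0.38, and 36 members exceeded the latter. Over the 3 trisomy 16 lines it was 1.12 against 0.54 (1.30 against 0.33 over the 2 lines without 3′ bias). All 39 members varied more there than among the 9 controls, as did 71.3% of all tested genes. The controls with the same first title numbers had a similar split. The mean of the members lay 0.58, 1.13 and -0.70 from the control mean in trisomy 16 lines 1 to 3, and 0.86, 0.79 and -0.51 from it in controls 1 to 3. Over the 4 trisomy 13 lines the median SD of the members was 0.54 against 0.49, and 16 members varied more than among controls, compared with 64.9% of all genes. The 2 trisomy 13 lines without 3′ bias lay close together, with a median SD of 0.16 against 0.23 for all genes. Kif22, a chromosome-arm kinesin, had the smallest SD among controls (0.25) and in trisomy 16 (0.45). The largest SD was that of Aurka in trisomy 13 (3.06) and of Plk1 in trisomy 16 (2.78). Plk1 was very low on all 3′-biased arrays (5.09 and 4.08 in trisomy 13 lines 3 and 4, 5.68 in trisomy 16 line 1). Aurka was very low on those of trisomy 13 (3.23 and 3.22) and not on that of trisomy 16 (9.22).

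**Figure D2:**
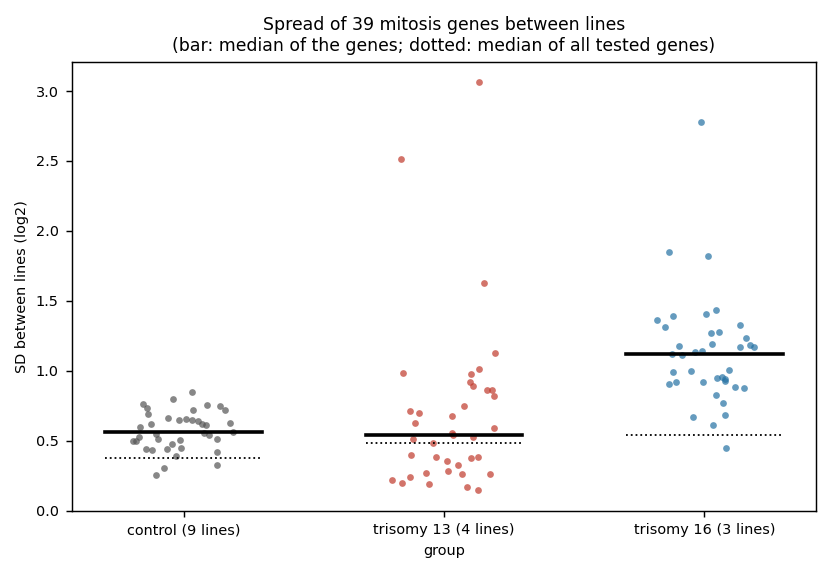
SD between lines of each of the 39 mitosis genes (points, log2 scale) in controls, trisomy 13 and trisomy 16, with the median of the members as a bar and of all tested genes as a dotted line. The members' median is 0.56 in controls, 0.54 in trisomy 13 and 1.12 in trisomy 16.

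Trisomy 13 lines had lower mitosis gene levels than controls. Of the 39 members 37 had a negative log2 fold change, with a median of -0.75, where all tested genes had a median of 0.01 and 48.8% were negative. Of the members 3 fell past the threshold (limma, Benjamini-Hochberg adjusted p under 0.05), compared with 0.664% of all tested genes, and 0 rose (1.10% of all tested genes). They were Bub1b, which encodes the checkpoint protein BubR1, Racgap1, a subunit of the centralspindlin complex of the midzone, and Aurka, the Aurora kinase of spindle poles. At an unadjusted p under 0.05, 18 members were lower (12.0% of all tested genes) and 0 were higher (9.88%). In 9 members every trisomy 13 line lay below every control line, compared with 1.00% of all tested genes, and in 0 did every line lie above every control (1.77%). The 9 were Aurka, Bub1b, Plk1, Cdk1, Birc5, Ube2c, Top2a, Nuf2 and Racgap1.

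The calls depended on single lines and settings. Without the 3 arrays with 3′ bias 0 of 39 members passed in limma (3 of 7382 tested genes were lower and 11 higher). All 39 fold changes were negative there, and their median was -0.94, against 0.0041 over all tested genes. In the 2 trisomy 13 lines without 3′ bias 23 members lay below every control in both lines, compared with 4.23% of all tested genes. Without control 2, control 7, control 8, or trisomy 13 line 3 or 4 the count of members past the threshold was 0. Of the 7382 tested genes 27, 18, 13, 16 and 5 were lower in these settings. Without trisomy 13 line 1 or 2 or trisomy 16 line 1 the count was 6, among 159, 540 and 75 lower genes. Against only the 4 controls that share a first title number with a trisomy 13 line, 34 members were negative and the median was -0.45. In this setting 0 members passed (4 of 7382 tested genes were lower and 9 higher).

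**Figure D3:**
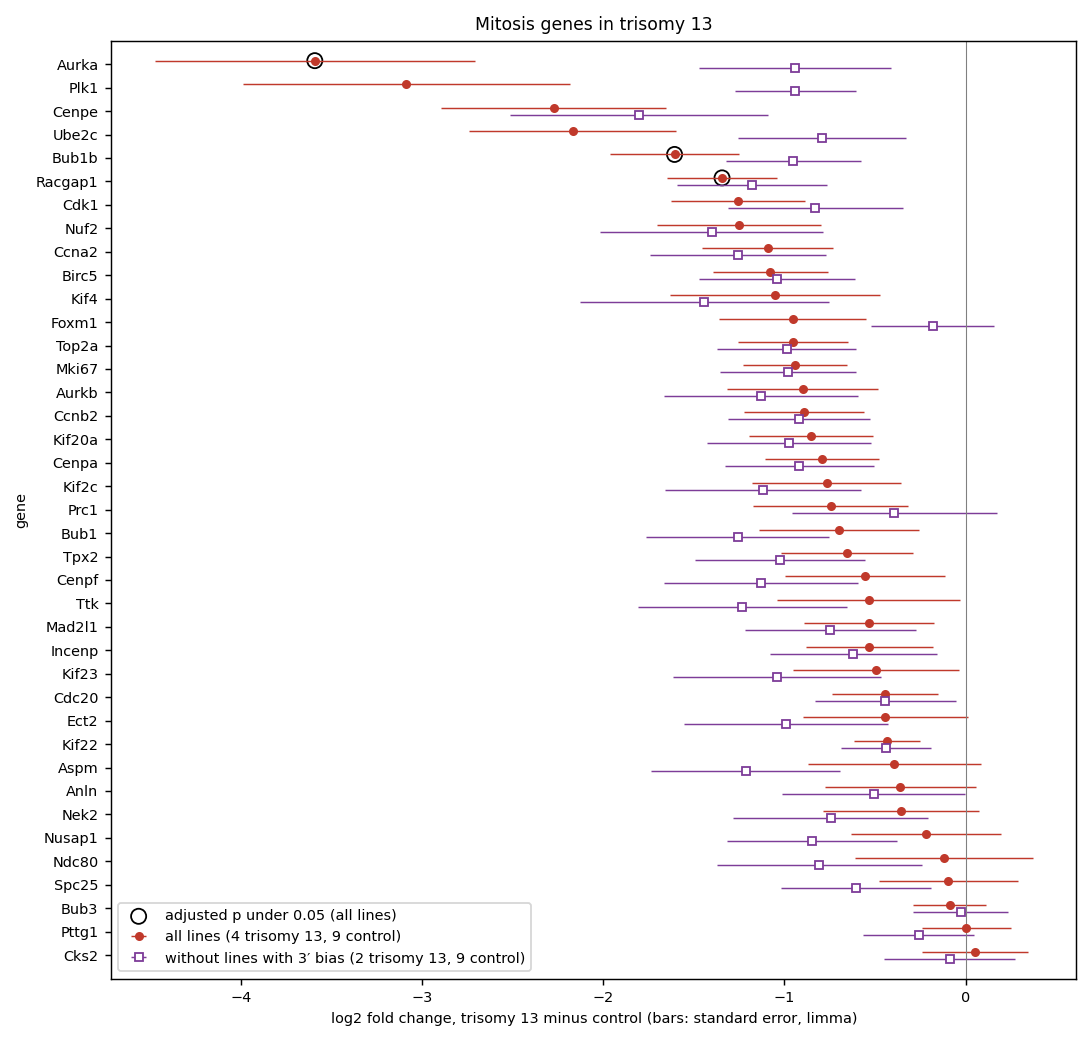
Log2 fold change of the 39 mitosis genes in trisomy 13 minus control, with standard errors from limma, for all lines (filled circles) and without the 3′-biased lines (open squares). All open squares lie below 0; Aurka, Plk1, Ube2c, Bub1b and Foxm1 lie closer to 0 without the biased lines, and Aspm, Ttk and Ndc80 lie further from it.

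Against controls of the same first title number, the lower values were clearest in trisomy 13 lines 1 and 2. Trisomy 13 line 1 had 36 of 39 members below control 4, with a median of -0.65, and line 2 had 36 below the mean of controls 5 and 6, with a median of -0.55. Among all tested genes 61.2% and 37.8% were below. The 3′-biased line 3 had 28 members below (median -0.48, 45.7% of all genes). Line 4, also 3′-biased, had 23 below control 7 and 16 above (median -0.22). Its share of 59.0% below was near the 48.3% of all genes. In 20 members all 4 lines lay below their matched controls, compared with 10.7% of all tested genes, and in 1 member, Cks2, all lay above, compared with 14.7%.

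**Figure D4:**
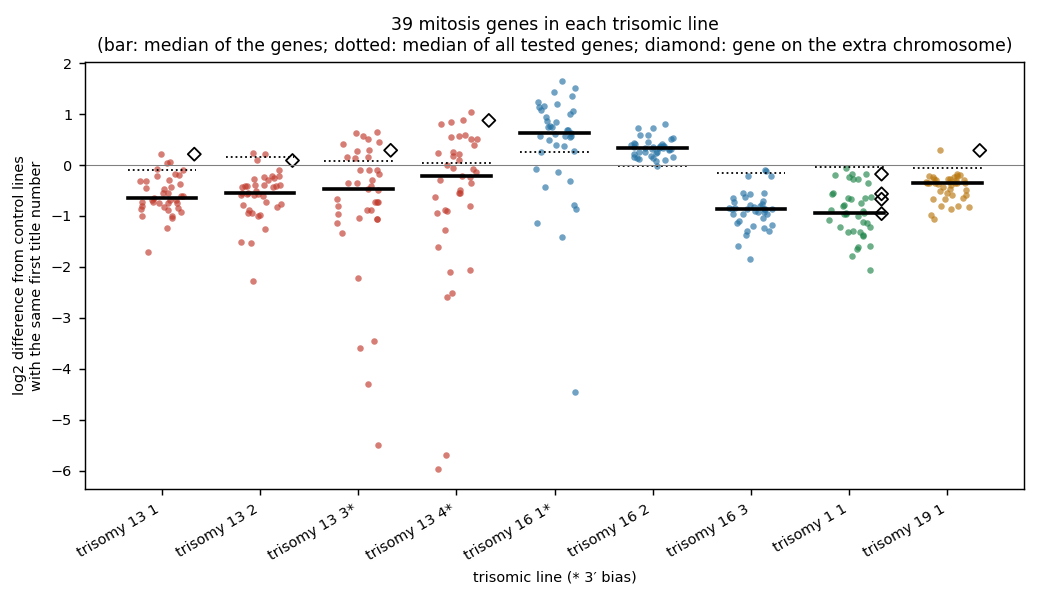
Log2 difference of each of the 39 mitosis genes (points) in each of the 9 trisomic lines from the control lines with the same first title number, with the median of the members (bar) and of all tested genes (dotted). Diamonds mark genes on the line's extra chromosome; medians run from -0.94 (trisomy 1) to 0.63 (trisomy 16 line 1).

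In the 3′-biased lines some members lay further from matched controls and others nearer, in shares near or below those of all tested genes. Averaged over lines 3 and 4, 5 members lay at least 1 log2 unit further down relative to matched controls than in lines 1 and 2: Aurka (-5.74 against -0.58), Plk1 (-5.00 against -0.78), Ube2c (-3.05 against -0.51), Foxm1 (-1.81 against 0.02) and Bub1b (-2.16 against -0.63). Of all tested genes 19.7% did so. Another 5 lay at least 1 unit higher in the biased lines: Aspm (0.62 against -0.84), Ttk (0.35 against -1.04), Ndc80 (0.80 against -0.34), Bub1 (0.08 against -0.97) and Ect2 (0.21 against -0.81), compared with 11.4% of all genes. Plk1 also differed from control 1 by -4.70 in trisomy 16 line 1, the third biased line. The size of the difference in these 10 genes moved with the biased arrays.

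Among checkpoint and kinetochore genes, Bub1b had 7.97, 8.49 and 9.29 as the lowest, median and highest log2 level in controls. The trisomy 13 lines 1 to 4 had 7.63, 7.65, 5.83 and 6.84, all below the lowest control. Bub1b fell by 1.61 (standard error, SE, 0.35; limma adjusted p = 0.033), and the value without the biased lines was -0.95. In trisomy 16 it stood at 8.70, 9.56 and 8.22, inside or just above the control range, and it was 7.54 in trisomy 1 and 7.81 in trisomy 19, both below every control.
Its partners in the checkpoint differed less over all lines. Bub3 had a fold change of -0.09, and Mad2l1, which encodes Mad2, one of -0.53 (SE 0.36, adjusted p = 0.39). Without the biased lines Bub3 was at -0.03 and Mad2l1 at -0.75, the latter near the -0.95 of Bub1b. Mad2l1 was 10.96 to 12.49 in controls with a median of 11.20, and 10.61, 10.73, 10.72 and 11.48 in trisomy 13 lines 1 to 4. Lines 1 to 3 lay just below the lowest control and the 3′-biased line 4 within the range. In trisomy 16 it was 12.57, 12.79 and 10.95, and in trisomy 1 it was 10.07, the lowest of all 18 lines.
The checkpoint kinases Ttk and Bub1 had fold changes of -0.53 and -0.70, and -1.23 and -1.26 without the biased lines.

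Of the kinetochore microtubule couplers, Nuf2 (on chromosome 1) had 8.12, 7.95, 8.14 and 8.52 in trisomy 13, all below the lowest control at 8.56. The control median was 9.15 and the highest control 11.02. Its fold change was -1.25 (SE 0.45, adjusted p = 0.14). Its partners in the Ndc80 complex, Ndc80 and Spc25, had fold changes of -0.12 and -0.10, and -0.81 and -0.61 without the biased lines. Cenpe had the largest difference of the group without a call, -2.27 (SE 0.62, adjusted p = 0.074), with 5.94, 4.49, 3.30 and 5.24 in trisomy 13 against 5.87 to 8.72 in controls. Against matched controls it differed by -1.71, -2.27, -3.45 and -2.07 in lines 1 to 4. Cenpa, the histone that marks centromeres, differed by -0.79, and Cenpf, a large kinetochore protein, by -0.56 (-1.13 without the biased lines).
Cenpf was 8.07, 8.11, 8.97 and 9.50 in trisomy 13, against 8.47 to 10.05 in controls with a median of 9.11, so the lines without 3′ bias lay below all controls and the biased ones inside the range.

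Among the mitotic kinases and cyclins, Aurka was 8.61 and 8.45 in trisomy 13 lines 1 and 2 and 3.23 and 3.22 in the 3′-biased lines 3 and 4. Controls ran from 8.68 to 10.69 with a median of 9.40. Its fold change of -3.59 (SE 0.88; limma adjusted p = 0.049) rested on the biased lines, and without them the value was -0.94. In trisomy 16 it was 9.22, 10.77 and 9.05, in trisomy 1 8.69 and in trisomy 19 8.60.
Plk1, the Polo-like kinase, was 8.91, 8.85, 5.09 and 4.08 in trisomy 13 against 9.26 to 10.55 in controls, a difference of -3.09 (adjusted p = 0.086) with and -0.94 without the biased lines. Cdk1 had a difference of -1.26 (SE 0.37, adjusted p = 0.087), and -0.83 without the biased lines, with all 4 lines, between 9.99 and 11.08, below the lowest control at 11.26. The cyclins Ccna2 and Ccnb2 differed by -1.09 and -0.89, and by -1.26 and -0.92 without the biased lines.
Nek2, a kinase that separates centrosomes, was 7.22, 6.16, 7.39 and 7.54 in trisomy 13, against 6.53 to 8.39 in controls (median 7.43), a difference of -0.36 (adjusted p = 0.64), and -0.74 without the biased lines. Its groups overlapped.

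In the chromosomal passenger complex, which corrects wrong attachments, Birc5 (survivin) had 10.75, 10.51, 10.34 and 10.76 in trisomy 13, all below the lowest control at 11.13. The control median was 11.54 and the highest 12.63. The difference was -1.08 (SE 0.32, adjusted p = 0.087), and -1.04 without the biased lines. Aurkb was 8.22, 8.03, 8.28 and 8.90 in trisomy 13 against 8.35 to 10.55 in controls (median 9.08), a difference of -0.90 (adjusted p = 0.22) with 1 line inside the control range. Incenp, the scaffold of the complex, on chromosome 19, was 10.92, 10.96, 10.87 and 11.36, against 10.44 to 12.25 (median 11.59), and differed by -0.53 (adjusted p = 0.37).

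Among spindle proteins, Kif22 differed by -0.43 (SE 0.18, adjusted p = 0.19), with 10.44, 10.03, 10.26 and 10.24 in trisomy 13 and 10.38 to 11.11 in controls (median 10.61). It had 2 more probe sets, which differed by -1.52 and -2.76 and, without the biased lines, by -1.15 and -1.76. Tpx2, which activates Aurora A at the spindle, was 9.49, 8.92, 9.63 and 10.27, against 9.44 to 11.31 (median 10.15), a difference of -0.65 (adjusted p = 0.30), and -1.03 without the biased lines. Aspm, a spindle pole protein on chromosome 1, was 7.87 and 7.69 in lines 1 and 2, below the lowest control at 8.18, and 9.10 and 9.75 in the biased lines, within the control range up to 9.93. Its fold change was -0.39 with and -1.21 without the biased lines.
The motors Kif4 and Kif2c differed by -1.05 and -0.77, and the bundling protein Nusap1 by -0.22 with and -0.85 without the biased lines.

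Among cytokinesis genes, Racgap1 was 9.34, 8.86, 8.71 and 8.83 in trisomy 13, and all 4 lay below the lowest control at 9.83. The control median was 10.14 and the highest control 11.11. It fell by 1.34 (SE 0.30; limma adjusted p = 0.036), and the value was -1.18 without the biased lines. A second probe set of Racgap1 differed by -1.33, and by -1.09 without them. Against matched controls the mean difference of the first was -0.82 in lines 1 and 2 and -1.38 in the biased lines. In trisomy 16 it was 10.88, 11.36 and 9.65, in trisomy 1 9.52 and in trisomy 19 9.90.
Anln (anillin, of the contractile ring) was 11.82, 11.40, 11.34 and 12.48 in trisomy 13 against 11.54 to 13.41 in controls (median 11.92), a difference of -0.36 (adjusted p = 0.63). The midzone proteins Kif20a, Prc1 and Kif23 differed by -0.85, -0.75 and -0.49, and by -0.98, -0.39 and -1.04 without the biased lines. Ect2, the exchange factor that Racgap1 recruits, differed by -0.44 with and -0.99 without them.

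Of the genes that act with the APC/C, Ube2c, its ubiquitin-conjugating enzyme, was 10.34 and 10.33 in trisomy 13 lines 1 and 2 and 7.14 and 8.02 in the biased lines. Controls ran from 10.52 to 12.30 with a median of 10.91, above all 4 lines. The difference was -2.17 (SE 0.57, adjusted p = 0.064), and -0.79 without the biased lines. Cdc20, the activator that the checkpoint restrains, differed by -0.44 with and without the biased lines. Its other probe sets differed by -1.38 and -0.34, and by -0.59 and -0.43 without these lines.
Pttg1 (securin), which holds separase inactive, had a difference of 0.0047 (adjusted p = 0.99), and -0.26 without the biased lines. It was 12.12, 11.91, 12.62 and 12.46 in trisomy 13 and 11.99 to 13.01 in controls (median 12.06). A second probe set of Pttg1 differed by -0.33 with and -0.10 without the biased lines. Of the proliferation markers, Mki67 (the Ki-67 antigen) was 11.08, 10.78, 10.61 and 11.41, against 11.24 to 12.52 (median 11.87), a difference of -0.94 (SE 0.29, adjusted p = 0.098). Top2a, the topoisomerase that untangles sister chromosomes, was between 10.69 and 11.14, below the lowest control at 11.30, a difference of -0.95 (adjusted p = 0.11).
Foxm1 was 5.71, 6.04, 4.78 and 3.88, against 5.71 to 6.60 (median 5.90). Its difference of -0.95 (adjusted p = 0.19) came with the 2 biased lines, and the value was -0.18 without them.

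**Figure D5:**
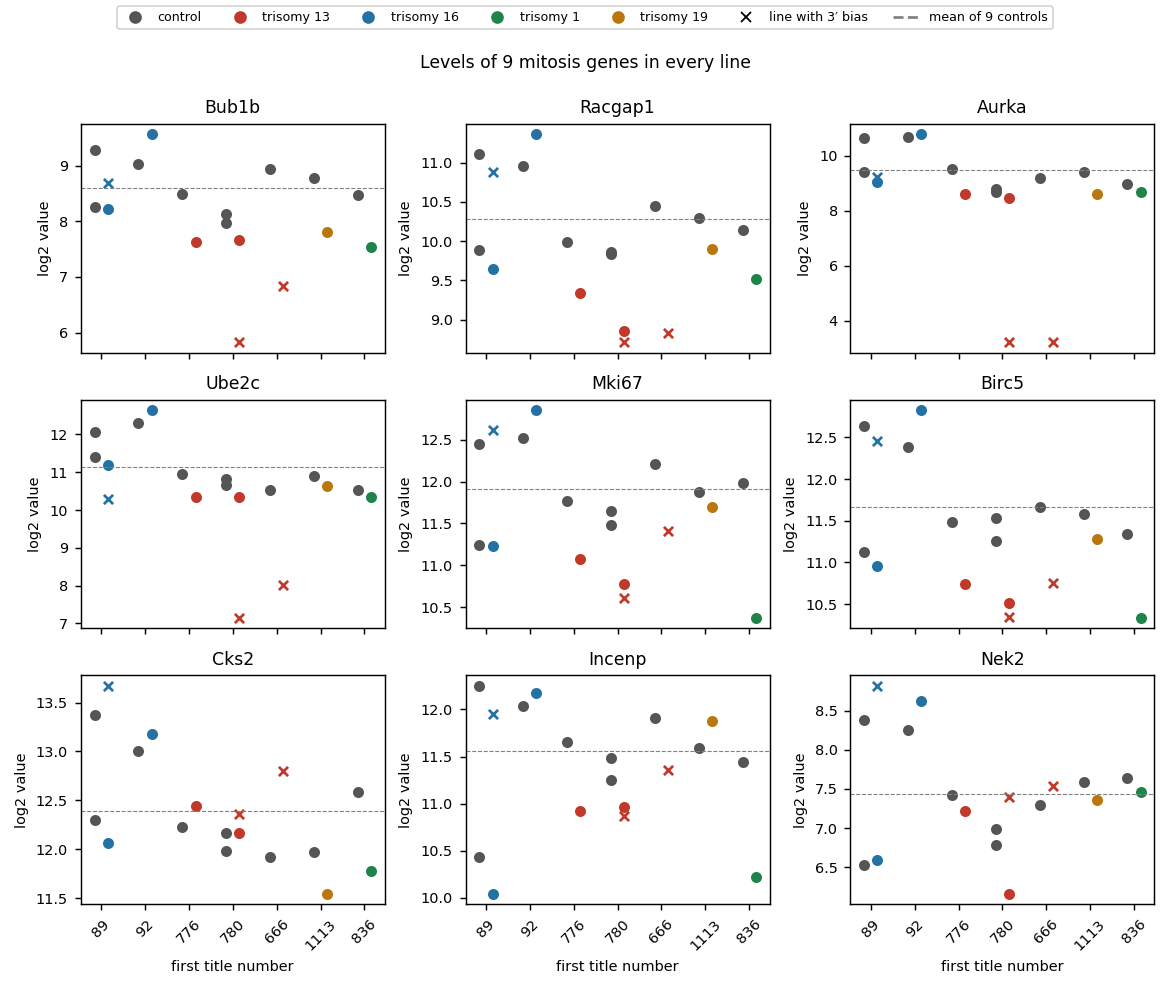
Log2 levels of 9 mitosis genes in every line by first title number, with controls in grey, trisomic lines in colour, 3′-biased lines as crosses and the mean of the 9 controls dashed. Bub1b, Racgap1, Aurka, Ube2c and Birc5 are below all controls in the 4 trisomy 13 lines, Cks2 is not, and the trisomy 16 lines lie on both sides of the control mean in each gene.

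Trisomy 16 lines stood on both sides of the controls. The mean of the members was 0.58 above the control mean in line 1 and 1.13 above in line 2, and it was -0.70 in line 3. Of the 39 members 35 had a positive log2 fold change, with a median of 0.36, where all tested genes had a median of -0.05 and 44.2% were positive. In limma 0 members passed in either direction (0% of all tested genes lower and 0.0406% higher), and 0 did at an unadjusted p under 0.05 (3.58% of all tested genes lower and 3.41% higher). In 0 members did every trisomy 16 line lie above every control (1.12% of all tested genes) or below every control (0.447%). The lowest p-values of their roles were those of Aurkb at 0.77 (SE 0.46), Cks2 at 0.58, Mad2l1 at 0.68, Tpx2 at 0.70, Anln at 0.56, Pttg1 at 0.37, Mki67 at 0.32 and Foxm1 at -0.17, with adjusted p from 0.76 to 0.93. Mki67 was 12.62 and 12.85 in lines 1 and 2, above the highest control at 12.52, and 11.23 in line 3, just below the lowest at 11.24.
Without line 3 the median was 0.93, against 0.04 over all tested genes. Still 0 members were past the threshold (0 of 7382 tested genes were lower and 7 higher). Without line 2 the median was 0.01. Without the 3′-biased line 1 the median was 0.23 with 7 members negative, and Aurkb was at 0.39, Cks2 at 0.23, Anln at 0.096, Pttg1 at 0.14, Mki67 at 0.13 and Foxm1 at 0.38.

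The values of trisomy 16 lines 1 and 3 depended on the control, and the median of line 1 changed sign. With the same first title number and the same replicate number, line 1 had 20 of 39 members below control 1 (median -0.03), line 2 had 1 below control 2 (median 0.33) and line 3 had 32 below control 3 (median -0.18). Of all tested genes 40.7%, 54.7% and 58.7% were below. Lines 1 and 3 share the number 89 with both control 1 and control 3. Against the mean of these controls line 1 had 9 members below (median 0.63) and line 3 had 39 (median -0.87). With this matching 0 members had all 3 lines above (12.1% of all tested genes) or all 3 below (10.9%). In the fit paired by replicate number over these 6 arrays the median fold change was 0.01, with 19 of 39 members negative and 0 past the threshold. In 4 members, Aurkb, Kif22, Ect2 and Nek2, all 3 pairs were higher in the trisomic line, compared with 17.7% of all tested genes, and in 0 all were lower (17.9%). Aurkb differed in these pairs by 0.24, 0.40 and 0.16, with a mean of 0.27 ± 0.12 (SD, n = 3), and Ect2 by 0.27, 0.51 and 0.18.
Bub1b, which fell in trisomy 13, differed by -0.59, 0.53 and -0.03 in the 3 pairs, and Racgap1 by -0.23, 0.41 and -0.23. For both genes the pairs lay on both sides of 0.

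The direct comparison of the 2 trisomies with replicate lines gave lower values in trisomy 13 for all 39 members, with a median of -1.14, where all tested genes had 0.03 and 47.4% were negative. Past the threshold were 2 members, both lower in trisomy 13, compared with 1.10% of all tested genes, and 0 were higher (1.33%). They were Racgap1 at -1.70 (SE 0.39; limma adjusted p = 0.030) and Bub1b at -1.84 (SE 0.45; limma adjusted p = 0.042). At an unadjusted p under 0.05, 20 members were lower (7.67% of all tested genes) and 0 were higher (10.1%). Next by p were Birc5 at -1.49, Ccnb2 at -1.52, Mki67 at -1.27 and Aurka at -3.80 (-1.38 without the biased lines), with adjusted p from 0.062 to 0.081.
Without trisomy 16 line 3 the count was 11 (89 of 7382 tested genes were lower). Without trisomy 16 line 2 or trisomy 13 line 3 or 4 it was 0 (16, 67 and 34 genes lower). Without control 1 or trisomy 13 line 2 it was 4 (94 and 128 genes lower). Without control 2, 4, 5, 7, 8 or 9 it was 1 (58 to 75 genes lower). Without the 3′-biased arrays 0 passed, with 38 members negative and a median of -1.21. With a block for the first title number the median was -0.54, with 35 negative and 0 past the threshold. With that block and without the 3′-biased arrays it was -0.16, with 30 negative. Without a block, this comparison of levels uses controls only for the spread.

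The single trisomy 1 line had low mitosis gene levels. All 39 members lay below control 9, its match by first title number, with a median of -0.94, and 54.2% of all tested genes were below. Of the members 16 were at least 2-fold lower, compared with 7.13% of all tested genes, and 0 were at least 2-fold higher (6.08%). In 29 members the line lay below every one of the 9 controls, compared with 10.3% of all tested genes. Ttk differed by -2.07, Cenpe by -1.78, Ect2 by -1.65, Mki67 by -1.62 and Bub1 by -1.58. Mki67 was 10.37 against 11.99 in control 9. The smallest difference was that of Bub3, at -0.05, and Plk1, Ube2c and Aurka, 3 of the genes lowest in the biased trisomy 13 lines, differed by -0.23, -0.18 and -0.27. With 1 line there is no replicate check and no test.

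The single trisomy 19 line was lower by less. Of the members 38 of 39 lay below control 8, with a median of -0.36, and 58.0% of all tested genes were below. Ttk was at least 2-fold lower, at -1.06, compared with 1.58% of all tested genes, 0 members were at least 2-fold higher (2.48%), and 13 members lay below every control (11.9% of all tested genes). Bub1b differed by -0.97, Bub1 by -0.87, Foxm1 by -0.82 and Aurka by -0.80. Incenp was the only member above its control. This line, too, has no replicate.
Of the 39 members 33 were below matched controls in all 4 of the lines trisomic for chromosomes 1, 13 and 19 without 3′ bias, compared with 12.4% of all tested genes. Each of these lines was already low by itself and the members vary together, so the count is no separate result. The trisomy 16 lines without 3′ bias were left out of it, with 1 member below in line 2 and 39 in line 3.

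A few members lie on an extra chromosome, and Cks2, Incenp and Nek2 ranked near the top of the members there. Cks2, the small subunit that binds cyclin-dependent kinases, is on chromosome 13. It was 12.44, 12.16, 12.36 and 12.80 in trisomy 13, against 11.92 to 13.37 in controls (median 12.23), a fold change of 0.05 (SE 0.29; limma adjusted p = 0.94). Against matched controls the 4 lines differed by 0.21, 0.09, 0.29 and 0.88, while the medians of the other members were -0.67, -0.55, -0.48 and -0.23. Its second probe set differed by 0.07, 0.52, 0.81 and 0.68. The medians of all tested genes on chromosome 13 were 0.55, 0.69, 0.77 and 0.94 in these lines, above the first probe set of Cks2 in each. In trisomy 16 and the single lines, where its copy number was normal, Cks2 was 13.67, 13.18 and 12.06 in trisomy 16 and 11.78 in trisomy 1 and 11.54 in trisomy 19, the last 2 below every control.
Incenp is on chromosome 19. In trisomy 19 it was 11.87 against 11.59 in control 8, a difference of 0.29 and the highest of the 39 members. The other 38 had a median of -0.36. A second probe set of Incenp differed by 0.089 in this line. The median of the 260 tested chromosome 19 genes was 0.59. In trisomy 16 it was 11.95, 12.17 and 10.04, and in trisomy 1 10.22.
Of the 4 members on chromosome 1, Nek2 in trisomy 1 was 7.47 against 7.65 in control 9 (-0.18, second of 39 from the top). Ube2c, on chromosome 2, also differed by -0.18 in this line. Cenpf was 9.38 against 9.94 (-0.56, rank 10), Nuf2 9.04 against 9.71 (-0.67, rank 14) and Aspm 8.97 against 9.93 (-0.95, rank 22). The other 35 members had a median of -0.94, and the 414 tested chromosome 1 genes a median of 0.51. None of the measured members is on chromosome 16.

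Genes of the wider mitotic machinery were read from 7 further lists. In trisomy 13, 14 of 18 tested inner and outer kinetochore genes had negative fold changes (median -0.47), led by Zwilch at -1.37, Cenpn at -1.30 and Haspin at -1.50, with adjusted p from 0.092 to 0.16. Of the regulators of mitotic entry 15 of 16 were negative (median -0.43), with Pkmyt1, an inhibitor of Cdk1, at -0.95 with and -0.47 without the biased lines and Ccnf at -1.24, while Cdk7, on chromosome 13, was at 0.54 with and 0.90 without them. Of 14 spindle motors and microtubule-binding proteins 9 were negative (median -0.43, and -0.18 without the biased lines). Kif11, the motor that pushes spindle poles apart, was at -1.24, Rae1 at -1.70 with and 0.17 without the biased lines, and Kif2a, on chromosome 13, at 0.70 with and 0.42 without them. Of 9 cohesin genes 6 were negative (median -0.23, and -0.58 without the biased lines), with Sgo1 (shugoshin, which protects centromeric cohesion) at -1.11, Cdca5 at -0.67 and Smc1a at -0.32. Sgo1 and Smc1a were at -1.88 and -0.58 without the biased lines.
The tested genes of a list of APC/C subunits and adaptors had a median of -0.15 with 10 of 13 negative, and the value without the biased lines was -0.04. Among them Cdc23 was at -0.62 with and -0.30 without the biased lines, Ube2s at -1.60 with and 0.13 without them, and Anapc13 at 0.28 and 0.11. Cytokinesis genes outside the members had 3 of 6 negative (median -0.23, and -0.0013 without the biased lines). Arhgef2 was at -0.93 with and 0.016 without these lines, Depdc1a at -0.90 and -1.68, and Chmp4b at 0.13 and 0.12. Centrosome duplication genes had 5 of 8 negative (median -0.30, and -0.53 without the biased lines), with Tubg1 at -1.27 and -0.12 and Plk4 at -0.45 and -0.89. In trisomy 13 1 of the 84 tested genes of the 7 lists passed the threshold, higher, or 1.19%, close to the 1.10% of all tested genes that were higher. This was Cetn3, a centrin on chromosome 13, which rose by 0.85 (SE 0.20; limma adjusted p = 0.043).
In trisomy 16 none of these genes passed, and list medians ran from -0.06 for the APC/C to 0.22 for centrosome duplication (-0.12 without the biased line). Ckap2 at 0.97, Mastl at 0.98 and Sass6 at 0.86 (-0.05 without the biased line) were the largest differences among the genes with the lowest p of each list.

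Of the 39 members 15 had several probe sets with a mean of at least 4, making 33 in all. In 13 of these 15 every such probe set was lower in trisomy 13 than in controls, and in 14 without the biased lines. Incenp had a second probe set that differed by -2.07 with and -1.12 without them, where the one used above differed by -0.53 and -0.62. A second probe set of Kif2c differed by -2.99 and -1.59, where the one used above differed by -0.77 and -1.12. For Kif23 these values were -1.59 and -1.70, against -0.49 and -1.04. For Aurka, Bub1b, Plk1 and Cenpe a single probe set was available, so no other part of the messenger was read.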

How the data were processed

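RNA of 18 mouse embryo fibroblast lines was read on Affymetrix arrays from 5 ug of total RNA, per the labels' protocols. The deposited values are log2 expression per probe set, which the authors made with GCRMA and the affy package, per the submitters' processing notes (versions: not given in the sources used here). Arrays carry no counting depth, and the number of lines limits the precision. Of 22690 probe sets, 20393 list exactly 1 gene. Genes (12394) were represented by the probe set with the highest mean, and 7382 had a mean of at least 4. Their test used limma 3.58.1 (lmFit, eBayes with a trend; R 4.3.3), all 18 arrays in 5 groups, two-sided, with Benjamini-Hochberg adjusted p under 0.05 over all tested genes. The single trisomy 1 and 19 lines were not tested. The other values and plots were made with Python 3.11.15 (pandas 2.3.3, matplotlib 3.10.9).

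The members, lists, roles and tests were chosen with earlier results of these data known. Named with values per line were members past the threshold, members on chromosomes 1, 13, 16 or 19, and the member of lowest p per role in trisomy 13 and in trisomy 16; of each further list, up to 3 genes of lowest p per comparison. A Gapdh 3′ minus 5′ difference above 3 defined 3′ bias. Trisomy 16 lines and the controls of the same replicate number deviated from their group means together, with correlations of 0.52, 0.41 and 0.58. On these values the lines were taken as paired, and trisomy 13 lines were not. Some lines that share neither number reached 0.47 (trisomy 13 line 2 with control 3) and 0.42 (trisomy 13 line 4 with control 9, trisomy 16 line 3 with control 5). The value of 0.41 therefore did not stand apart. Trisomy 13 line 1 and control 4, of the same first title number, had 0.36. The fit was tested on simulated data with known changes of 1 log2 unit. It found 36.7% of them for trisomy 13 minus control and 26.3% for trisomy 16 minus control. For trisomy 13 minus trisomy 16 it found 17.3%. A count of 0 past the threshold therefore does not show that no gene differed by that much. Alternatives were other filters, probe set summaries, scalings, blocks, covariates and controls, and leaving out each line.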

Additional observations from a re-analysis of the deposited data

Results flagged for a closer look

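Mad2l1 stood at 11.48 in trisomy 13 line 4, a 3′-biased line, where the nearest of the other 3 trisomy 13 lines was at 10.73. This gap was wide for a group of 4, and over 80 groups checked it was the 1 such case. Chance gives about 1 in 20 groups, so 1 case among 80 groups is not more than chance gives. Levels in the 2 trisomies differed by the direct test for Bub1b (-1.84, limma adjusted p = 0.042) and Racgap1 (-1.70, limma adjusted p = 0.030). All 4 trisomy 13 lines lay below all 3 trisomy 16 lines for both genes. The direct test uses controls only for the spread, so it does not compare the effects of the 2 trisomies against their controls. With a block for the first title number the values were -1.36 and -1.08 (limma adjusted p = 0.82 for both).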

How the results depend on the processing

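The count of members lower in trisomy 13 than in controls (3) was 0 with a replicate block by first title number (also without the 3′-biased arrays), with a replicate block by replicate number, without the 3′-biased arrays, with the Gapdh difference as a covariate and with only controls of a shared first title number; it ran from 0 to 6 when 1 line was left out. For trisomy 13 minus trisomy 16 (2) it was 0 with each of these blocks and without the biased arrays, 1 with no filter on low values, 5 with arrays centred on their median, 4 with the first title number as a random block, 8 with the covariate and 0 to 11 without 1 line. Of the 7382 tested genes 108, 125 and 196 were lower with the centring, the random block and the covariate. For trisomy 16 minus control it was 0 in every setting, and the pairing of trisomy 16 with controls 1 to 3 changed no call. In the block by replicate number each trisomy 13 line shares its block with a control of another first title number. The cause of each shift was not tested. The pairing over controls 1 to 3 and the first number block without the biased arrays were added after the data were seen.

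The sign of the log2 fold change turned for some members, none of them past the threshold. For Cks2 in trisomy 13 the value was -0.28 with the block by replicate number, -0.089 without the biased arrays, -0.20 with the covariate and -0.069 to 0.17 without 1 line. Foxm1 in trisomy 13 was 0.048 with the first number block without the biased arrays. Under that setting trisomy 16 gave -0.30 for Aurkb, -0.36 for Mad2l1, -0.23 for Tpx2, -0.65 for Anln, -0.43 for Pttg1, -0.21 for Mki67, -0.37 for Cks2 and 0.25 for Foxm1. Pttg1 in trisomy 16 was also -0.12 with the first number block, with the controls of a shared number and with the pairing. Foxm1 in trisomy 16 was 0.042 after quantile normalization, 0.38 without the biased arrays, 0.26 with the covariate and -0.74 to 0.38 without 1 line.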
